A study of Mus musculus with 20 samples.

Results

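The inhibins, activins and follistatins form a hormone system that was first described in the gonads. An inhibin is a dimer of an alpha subunit, encoded by Inha, and a beta subunit, encoded by Inhba (beta A) or Inhbb (beta B), whereas an activin is a dimer of beta subunits alone. Activins bind a type II receptor (Acvr2a or Acvr2b), which recruits a type I receptor such as Acvr1b and passes the signal to SMAD2 and SMAD3. Follistatin (Fst) and follistatin-like 3 (Fstl3) bind activin and keep it from its receptors, and inhibin from growing follicles lowers the release of follicle-stimulating hormone by the pituitary. Granulosa cells, which surround the oocyte in the follicle, are the main source of the subunits in the ovary.

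The 8 genes Inha, Inhba, Inhbb, Fst, Fstl3, Acvr1b, Acvr2a and Acvr2b were taken by symbol from the 54838 genes listed in ovary count tables of 2 Dummerstorf mouse lines, and all 8 passed the filter on low counts in every comparison. FL1 (genotype FL1) is an outbred line bred over many generations for large and heavy litters, and ctrl (genotype WT) is the unselected line from the same base population. No transgene, knockout or treatment was involved. Ovaries of females aged about 77 days were collected in estrus, the stage of ovulation, or in diestrus, which gave 4 groups of 5 libraries, 1 for each line at each stage. The stage was read from vaginal smears, and fat, oviduct and the capsule of the ovary had been removed. Each library is 1 animal. Levels are given as CPM, the read count normalised to a common library size. Reads of this 3' mRNA-Seq method gather at the end of a transcript, so their number does not grow with transcript length. How well the end of each transcript was captured was not tested. Ranks and ratios between genes therefore describe reads and not amounts of RNA. In RNA of whole ovaries, fewer cells of a type and less RNA per cell cannot be told apart.

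Libraries held 5991223 to 10352718 counts (median 6957533), so the detection floor of 3 counts equals 0.290 to 0.501 CPM. This floor covers counting error only. The lowest count of any of the 8 genes in any library was 48. The library ctrl estrus 5 stood apart: its median distance to the other libraries of its group was 100.3, against 62.0 to 81.0 for the other 19 libraries. Of the 20 libraries it had the lowest summed CPM of the granulosa markers (1096), the theca markers (94.2) and the oocyte markers (162) and the highest of the fat markers (109). It also held the lowest CPM of Inha, Inhba, Inhbb and Fst and the highest of Fstl3. Tests of the 8 members were repeated without it, and the main values that bear on the results below are given both ways. Calls of pathway genes and markers were not checked without it, and marker sums include it. Of the 10 granulosa markers, 9 were tested, while Amh, a defining marker, did not exceed 0.56 CPM in any library. Gja1 had the highest mean of them in every group (945 to 1753 CPM), so it weighs most in their sums. Oviduct markers summed to 8.97 to 24.6 CPM over all libraries.

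By mean CPM the alpha subunit was the highest of the 8 genes and the receptors the lowest. Averaged over the 20 libraries, Inha ranked 30th of the 54838 genes by CPM, Inhba 223rd, Inhbb 465th and Fst 620th. Fstl3 ranked 5765th, Acvr2a 7781st, Acvr1b 8460th and Acvr2b 8572nd. In each group the CPM of Inha lay above that of every other member without overlap. Inhba, Inhbb and Fst followed, and neighbours among these 3 overlapped in every group. Fstl3 and the 3 receptor genes lay lowest, although Inhbb (40.6 CPM) and Fst (35.0 CPM) in ctrl estrus 5 fell within the range of Fstl3. In estrus Fstl3 stood above the receptors in both lines without overlap, whereas in diestrus its range overlapped that of Acvr2a in both. The 3 receptor genes overlapped with their neighbours in all groups.

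**Figure D1:**
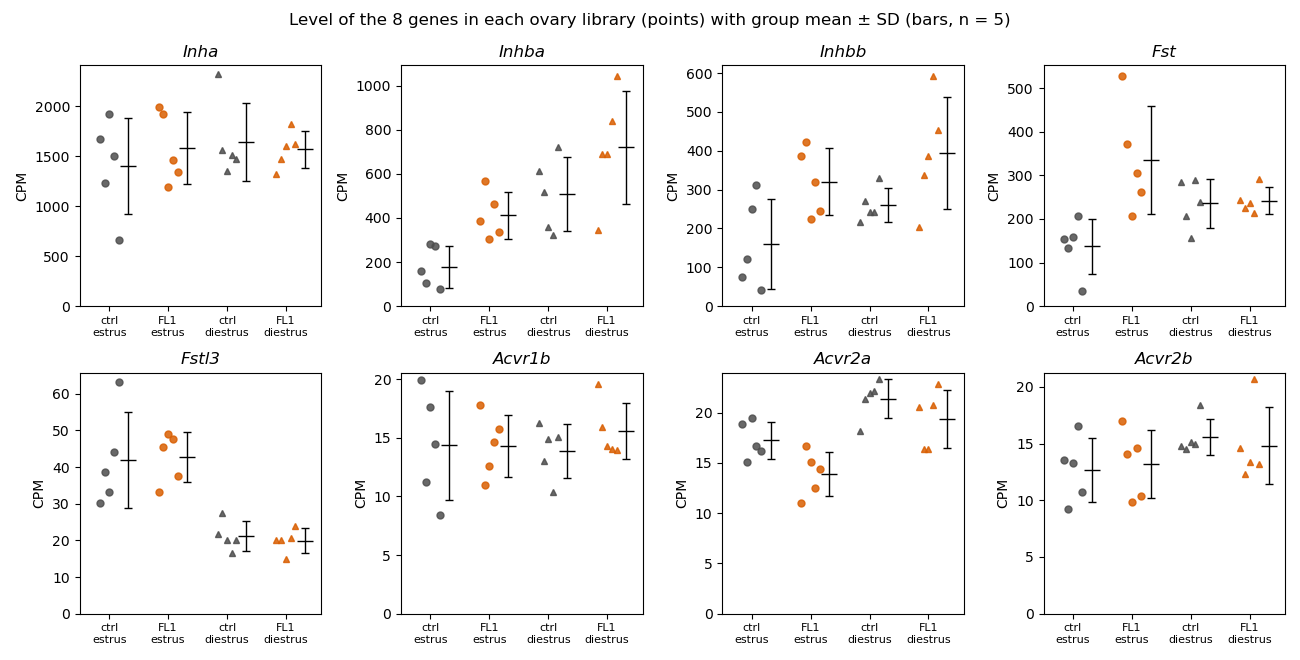
CPM (y axis, linear, from 0) of the 8 genes in each of the 4 groups (x axis), with 1 point per library in the order of replicate number and the group mean ± SD beside it (n = 5). Inhba and Inhbb are lowest in ctrl in estrus, Fst is highest in FL1 in estrus, and Fstl3 is higher in estrus than in diestrus in both lines.

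Inha lies on chromosome 1 (GRCm38, 75507077 to 75510366, plus strand). Its CPM was 1676, 1235, 1925, 1501 and 667 in the 5 ctrl estrus libraries and 1996, 1927, 1195, 1459.9 and 1347 in FL1 in estrus. In diestrus it was 2327, 1559.9, 1357, 1510.5 and 1469.9 in ctrl and 1319, 1472, 1603, 1819.5 and 1628 in FL1. The groups overlapped in all 4 comparisons, and the highest group mean was 1.17 times the lowest. The log2 fold change (log2FC) between the lines was 0.18 ± 0.24 (SE) in estrus and -0.07 ± 0.14 in diestrus, and between the stages -0.23 ± 0.24 in ctrl and 0.01 ± 0.14 in FL1, none of which passed the test (edgeR's quasi-likelihood test, adjusted p between 0.725 and 0.958). Without ctrl diestrus 1, the highest of all libraries, the difference between the lines in diestrus changed sign to 0.09. Without ctrl estrus 5, the lowest of all, the log2FC was 0.0038 between the lines in estrus and -0.06 between the stages in ctrl.

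Inhba, which encodes the subunit of activin A and inhibin A, varied most between the groups: its highest group mean was 4.03 times its lowest. The gene lies on chromosome 13 (16011851 to 16031621, plus strand) and overlaps B230303A05Rik and Gm48444 on the opposite strand. Its CPM was 159.9, 103, 282, 272 and 77.7 in ctrl in estrus and 386, 569, 306, 464 and 335 in FL1 in estrus. In diestrus it was 614, 519, 360.2, 323 and 721 in ctrl and 343, 688, 689.9, 839 and 1044 in FL1. The 5 ctrl estrus libraries were the lowest of all 20, and the libraries of the other 3 groups overlapped with each other.

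Inhbb, which encodes the subunit of activin B and inhibin B, lies on chromosome 1 (119415465 to 119422248, minus strand) and overlaps no other gene. Its CPM was 76.4, 122, 249, 312 and 40.6 in ctrl in estrus and 387, 422, 224, 319.9 and 245 in FL1 in estrus. In diestrus it was 217, 271, 242, 243 and 331 in ctrl and 203, 337, 387, 593 and 455 in FL1. The ctrl estrus libraries spread widely, with 3 of them below all others and 2 within the range of the other groups.

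The stretches upstream of both beta subunit genes are shown because the levels of the 2 genes were correlated from library to library, as described further on. RefSeq start sites were matched for 7 of the 8 members (GRCm38.p6), and each stretch holds the 250 bases before the start site, read on the strand of the gene.
Inhba, chr13:16011601-16011850, plus strand: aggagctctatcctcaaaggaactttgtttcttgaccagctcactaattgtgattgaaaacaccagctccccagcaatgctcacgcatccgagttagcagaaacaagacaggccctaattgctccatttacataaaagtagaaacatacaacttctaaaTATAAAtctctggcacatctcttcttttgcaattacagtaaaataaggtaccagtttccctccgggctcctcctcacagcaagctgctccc
Inhbb, chr1:119422249-119422498, minus strand: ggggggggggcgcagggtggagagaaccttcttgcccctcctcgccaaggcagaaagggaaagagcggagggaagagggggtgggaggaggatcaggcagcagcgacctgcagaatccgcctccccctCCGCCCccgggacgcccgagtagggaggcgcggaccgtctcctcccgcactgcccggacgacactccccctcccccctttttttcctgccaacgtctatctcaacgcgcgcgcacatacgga
Capitals mark matches to the letters of a TATA box (TATAAA) or a GC box (GGGCGG) on either strand, and no match to the core of a cAMP response element (TGACG), an NR5A motif (AAGGTCA) or a GATA site (AGATAA) was found in these 2 windows. The Inhba window had a GC content of 43.2% and held 1 TATAAA, from 91 to 86 bases before the start. The Inhbb window had a GC content of 68.0% and held 1 GC box on the opposite strand. Among the 32851 RefSeq windows of this length the median GC content was 52.4%. TATAAA occurred in 12.4% of them, GGGCGG in 32.7%, TGACG in 17.8%, AAGGTCA in 4.08% and AGATAA in 9.99%. A match is a description of the letters and not a site of binding.

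Follistatin differed from each subunit gene in the order of its group means, and the subunit genes also differed from each other in theirs. Fst lies on chromosome 13 (114452290 to 114458951, minus strand) and overlaps Gm47040 on the opposite strand. Its CPM was 155, 134, 158, 208 and 35.0 in ctrl in estrus and 528, 371, 208, 306 and 262.8 in FL1 in estrus. In diestrus it was 285, 208, 157, 289.6 and 239 in ctrl and 244, 225, 237, 213 and 292 in FL1. FL1 in estrus had the highest mean, ctrl in estrus the lowest, and the diestrus groups lay between them with overlapping ranges. In estrus the 2 lines did not overlap, but only barely, since the lowest FL1 library had 207.7 CPM and the highest ctrl library 207.5.

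Fstl3, the other activin-binding protein, separated the stages. The gene lies on chromosome 10 (79777272 to 79782630, plus strand) and overlaps Prss57 on the opposite strand. Its CPM was 30.3, 38.7, 33.1, 44.2 and 63.3 in ctrl in estrus and 33.3, 45.4, 49.1, 47.7 and 37.6 in FL1 in estrus. In diestrus it was 21.8, 27.5, 19.97, 16.6 and 20.1 in ctrl and 20.2, 20.1, 14.8, 20.7 and 23.98 in FL1. All 10 estrus libraries lay above all 10 diestrus libraries.

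The receptor genes had low CPM. Acvr1b, the type I receptor, lies on chromosome 15 (101174067 to 101213684, plus strand) and ranged from 8.44 to 19.96 CPM over the 20 libraries, with group means between 13.9 and 15.6. Acvr2b, a type II receptor on chromosome 9 (119402118 to 119434995, plus strand), ranged from 9.27 to 20.7 CPM, with group means between 12.7 and 15.6. Acvr2a, the other type II receptor, lies on chromosome 2 (48814109 to 48903269, plus strand) and overlaps Orc4 on the opposite strand. Its CPM was 18.9, 15.1, 19.4, 16.7 and 16.2 in ctrl in estrus, 11.01, 16.6, 15.1, 12.5 and 14.4 in FL1 in estrus, 18.2, 21.3, 21.9, 22.2 and 23.4 in ctrl in diestrus, and 20.6, 16.3, 16.4, 20.8 and 22.8 in FL1 in diestrus. In both lines the estrus and diestrus ranges overlapped. Acvr1b overlaps the microRNA gene Mir6962 on the same strand and Acvr2b overlaps Gm47320 on the opposite strand. The strand setting of the counting is not given in the sources used here, so reads of these overlapping genes cannot be told apart from those of the members.

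The first comparison asks whether the ovaries of the high-fertility line differ from ctrl at the same stage. In estrus, Inhba and Fst had higher values in FL1, each without overlap between the lines, but 0 of the 8 genes passed an adjusted p of 0.05 (edgeR's quasi-likelihood test with Benjamini-Hochberg adjustment over 13374 genes), where 2.33% of all tested genes did. The log2FC of Inhba was 1.20 ± 0.31 (SE, adjusted p = 0.0627) and that of Fst was 1.28 ± 0.35 (adjusted p = 0.0787). Inhbb had a log2FC of 0.99 ± 0.42 (adjusted p = 0.253), or 0.75 without ctrl estrus 5 (adjusted p = 0.245). An unadjusted p under 0.05 was reached by 3 of the 8 genes, against 15.9% of all tested genes, and groups without overlap occurred in 2 of the 8, against 4.89%. The median log2FC of the 8 genes was 0.11, and that of all tested genes was -0.0052. Without ctrl estrus 5 both Inhba (log2FC 1.01, adjusted p = 0.0499) and Fst (log2FC 1.04, adjusted p = 0.0205) passed the test. Inhba also passed without ctrl estrus 3 (adjusted p = 0.0329) and without ctrl estrus 4 (adjusted p = 0.0480). Over the 10 fits with 1 library left out, edgeR's test called Inhba in 3 (highest adjusted p = 0.158) and Fst in 1 (highest adjusted p = 0.204). DESeq2's Wald test (adjusted p = 0.0346) and limma-voom (adjusted p = 0.0408) called Inhba but not Fst. In edgeR's test none of the 9 tested granulosa markers and none of the 8 luteal markers was called between the lines in estrus, while 2 and 1 of them had an unadjusted p under 0.05. The granulosa markers summed to 1096 to 2671 CPM in ctrl and to 2027 to 3026 CPM in FL1. The lowest ctrl sum was that of ctrl estrus 5, and the next was 1881 CPM in ctrl estrus 2. Kitl, Foxl2 and Amhr2 had lower means in FL1 than in ctrl, and the other tested granulosa markers higher ones. The part of cell composition in these values was not tested.

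In diestrus Inhbb and Inhba had the highest values in FL1, but the lines overlapped in every member. None of the 8 genes passed edgeR's test, DESeq2 or limma-voom. By edgeR's test 4.11% of all 13259 tested genes did. Of the members, 1 had an unadjusted p under 0.05 (17.7% of all tested genes) and none separated the lines without overlap (5.45% of all tested genes). Inhbb had the largest log2FC of the members, 0.60 ± 0.21 (adjusted p = 0.145), followed by Inhba with 0.50 ± 0.26 (adjusted p = 0.333), while Fst had 0.04 ± 0.15 (adjusted p = 0.939). FL1 diestrus 1 had the lowest Inhba and Inhbb of its group, and without it Inhbb passed the test (log2FC 0.76, adjusted p = 0.0198). Of the 10 fits with 1 library left out, only this 1 called Inhbb (highest adjusted p by edgeR's test 0.341). With all libraries and genes of at least 1 count kept, edgeR's test also called Inhbb (adjusted p = 0.0233). The median log2FC of the members was -0.02, and that of all tested genes was -0.0093. Markers called between the lines in diestrus, each higher in FL1, were Foxl2 as 1 of 9 tested granulosa markers (301 ± 17.3 CPM in ctrl and 436 ± 75.5 CPM in FL1, log2FC 0.53 ± 0.11, adjusted p = 0.0132), Lhcgr as 1 of 8 luteal markers (219 ± 114 and 589 ± 145 CPM, log2FC 1.43 ± 0.32, adjusted p = 0.0209) and the globin gene Hba-a2 as 1 of 5 blood markers (log2FC 4.77 ± 0.66, adjusted p = 0.0010). By the authors' qPCR in diestrus, Lhcgr was also higher in FL1, whereas Foxl2 was not. The globin gene Hba-a1 was not called, with means of 573 CPM in ctrl and 626 CPM in FL1. The median log2FC of the 5 blood markers was 0.42. The granulosa markers summed to 2517 to 3135 CPM in ctrl and 2706 to 3318 CPM in FL1, where FL1 diestrus 1 had the lowest sum, and the luteal markers to 30274 to 52892 and 37728 to 49084 CPM. The part of these markers in the values of Inhba and Inhbb was not tested.

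Whether the line difference depended on the stage was tested as a line-by-stage interaction over all 20 libraries, coded as the FL1 minus ctrl difference in estrus minus that in diestrus. None of the 8 genes passed edgeR's test, DESeq2 or limma-voom. By edgeR's test 0.0565% of all 14154 tested genes did. Fst had the largest interaction of the members, 1.24 ± 0.42 on the log2 scale (adjusted p = 0.232), and it alone of the 8 had an unadjusted p under 0.05, against 11.7% of all tested genes. The interaction of Inhba was 0.69 ± 0.44 (adjusted p = 0.560) and that of Inhbb 0.39 ± 0.51 (adjusted p = 0.812). Acvr2a had -0.16 ± 0.19 (adjusted p = 0.793) and Fstl3 0.12 ± 0.25 (adjusted p = 0.896). Without ctrl estrus 5 the interaction was 0.996 for Fst (adjusted p = 0.143), 0.50 for Inhba (adjusted p = 0.645), 0.15 for Inhbb (adjusted p = 0.923) and 0.31 for Fstl3 (adjusted p = 0.582).

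**Figure D2:**
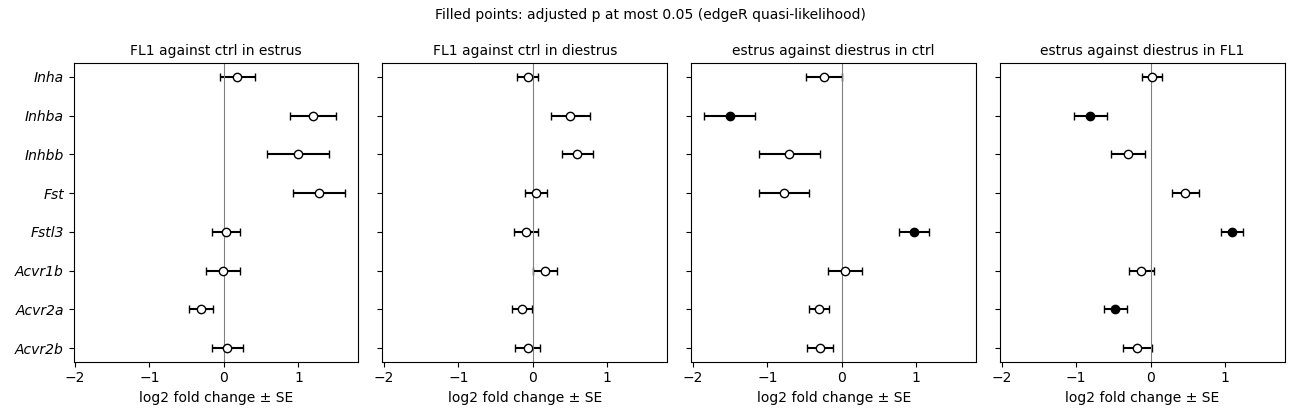
Log2 fold change ± SE (x axis) of the 8 genes (y axis) in the 4 comparisons, from edgeR's quasi-likelihood test, with filled points for an adjusted p of at most 0.05. No point is filled in either comparison of the lines, Inhba and Fstl3 are filled in both comparisons of the stages, and Acvr2a is filled in the comparison of the stages in FL1.

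The second comparison sets the stages against each other within each line. In both lines Inhba was weaker and Fstl3 stronger expressed in estrus than in diestrus. In ctrl, 2 of the 8 genes passed the test, where 2.85% of all 13334 tested genes did, and both separated the stages without overlap (4.52% of all tested genes). An unadjusted p under 0.05 was reached by 4 of the 8 genes in ctrl and by 4 in FL1, against 15.4% and 30.1% of all tested genes. Inhba was 2.84-fold lower in estrus (log2FC -1.50 ± 0.34, adjusted p = 0.0336) and Fstl3 was 1.97-fold higher (log2FC 0.98 ± 0.20, adjusted p = 0.0209). In FL1, 3 of the 8 genes passed the test, where 15.9% of all 13350 tested genes did. Fstl3 alone separated the stages without overlap (12.2% of all tested genes) and was 2.13-fold higher in estrus (log2FC 1.09 ± 0.14, adjusted p = 6.4e-05). Inhba was 1.75-fold lower (log2FC -0.81 ± 0.22, adjusted p = 0.0204) and Acvr2a 1.39-fold lower (log2FC -0.47 ± 0.16, adjusted p = 0.0480), both with overlapping ranges. Inhba lost its call with 1 fit of all 20 libraries (adjusted p = 0.106). Acvr2a lost its call with limma-voom (adjusted p = 0.0561), with genes of at least 1 count in total (adjusted p = 0.0653), with genes of at least 10 counts in every library (adjusted p = 0.0504) and with the replicate number as a block (adjusted p = 0.0840). In ctrl both calls were lost with the block (Inhba adjusted p = 0.0917, Fstl3 adjusted p = 0.0502). The stage comparison in ctrl shares its ctrl estrus libraries with the line comparison in estrus, so the low Inhba of these libraries enters both.

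Most of these calls also changed when single libraries were left out. In ctrl, Fstl3 and Inhba stayed called without ctrl estrus 5 (log2FC 0.78 and -1.32, adjusted p = 0.0198 and 0.0317). The call of Inhba in ctrl was lost without ctrl estrus 1 or 2 or without ctrl diestrus 1, 2 or 5 (adjusted p between 0.0578 and 0.0776), and that of Fstl3 without ctrl estrus 4 or ctrl diestrus 3 or 4 (adjusted p between 0.0556 and 0.0630). In FL1, Fstl3 was called whichever library was left out. Inhba was lost in FL1 without FL1 estrus 5, FL1 diestrus 4 or FL1 diestrus 5 (adjusted p between 0.0525 and 0.0611). Acvr2a was lost without FL1 estrus 1, 3, 4 or 5 or FL1 diestrus 1, 4 or 5 (adjusted p between 0.0536 and 0.118).

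The other members did not pass the test between the stages. In ctrl the log2FC of Fst was -0.78 ± 0.33 (adjusted p = 0.276) and that of Inhbb -0.70 ± 0.41 (adjusted p = 0.468). Without ctrl estrus 5 these were -0.53 (adjusted p = 0.129) and -0.46 (adjusted p = 0.4997). In FL1 Fst had a log2FC of 0.47 ± 0.19 (adjusted p = 0.0973), of opposite sign to that in ctrl, and the difference of the 2 is the interaction given above. Inhbb had -0.30 ± 0.22 in FL1 (adjusted p = 0.393). Without FL1 estrus 3, Fst passed the test in FL1 (log2FC 0.60, adjusted p = 0.0161). With any other library left out, edgeR's test did not call Fst in FL1 (adjusted p up to 0.260). Acvr2a in ctrl had a log2FC of -0.31 ± 0.13 (adjusted p = 0.280). The median log2FC of the 8 genes was -0.30 in ctrl and -0.15 in FL1, against medians of -0.0058 and 0.0071 over all tested genes.

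Markers of ovarian cell types also differed between the stages. Of all tested genes, 2.85% were called between the stages in ctrl and 15.9% in FL1. In ctrl 15.4% had an unadjusted p under 0.05. The luteal markers, genes of the progesterone-forming corpus luteum, summed to 16532 to 42172 CPM in ctrl in estrus and 30274 to 52892 CPM in ctrl in diestrus. Of the 8, only Lhcgr, the receptor of luteinizing hormone, was called in ctrl (log2FC -1.75 ± 0.34, adjusted p = 0.0161). In FL1 the sums were 18718 to 36401 CPM in estrus and 37728 to 49084 CPM in diestrus, and 7 of the 8 were lower in estrus, namely Lhcgr (log2FC -2.64), Star, which moves cholesterol into mitochondria (-1.56), the prolactin receptor gene Prlr (-1.40), Scarb1 (-1.18), Ptgfr (-0.86), Cyp11a1 (-0.79) and Hsd3b1 (-0.78). Cyp17a1, an androgen-forming enzyme of theca cells, was lower in estrus in ctrl (-5.02) and in FL1 (-3.83), and was the only theca marker of 4 tested to be called in either. The granulosa markers summed to 1096 to 2671 CPM in estrus and 2517 to 3135 CPM in diestrus in ctrl, where edgeR called none of 9 and 5 had an unadjusted p under 0.05. In FL1 the sums were 2027 to 3026 CPM in estrus and 2706 to 3318 CPM in diestrus. Of the 9 tested, the aromatase gene Cyp19a1 (-1.38), Foxl2 (-0.55) and Gja1 (-0.53) were lower in estrus and Amhr2 (0.53) was higher. In FL1 the oocyte gene Bmp15 was higher (0.81), as 1 of 8 oocyte markers, and the blood markers Hbb-bs, Hbb-bt, Hba-a1 and Alas2 were lower (-1.24 to -0.85), as 4 of 5. Of 5 fat and 5 oviduct markers, at most 4 and 1 had counts enough for a test, and none was called between the stages. The part of these markers in the results for Inhba, Fstl3 and Acvr2a was not tested.

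The rest of the pathway was described by a list of 25 genes of ligands, co-receptors, binding proteins, proprotein convertases and SMADs. Of these, 17 or 18 were tested in each comparison. Inhbc, Inhbe, Mstn and Foxh1 had no count in any library, Igsf1, Tgfbr3l and Wfikkn1 had at most 8, and Tdgf1 (at most 36 counts) was tested in some comparisons only. Between the lines in estrus, 1 of 17 was called: Smad4, the SMAD that partners with SMAD2 and SMAD3, was stronger expressed in FL1 (log2FC 0.44 ± 0.10, adjusted p = 0.0412), with 126 ± 13.3 CPM in ctrl and 171 ± 16.7 CPM in FL1 (SD, n = 5) and no overlap. In diestrus edgeR called 0 of 18, with 4 at an unadjusted p under 0.05, and the interaction called 0 of 18, with 1 at an unadjusted p under 0.05. Of all tested genes, 2.33% were called in estrus, 4.11% in diestrus and 0.0565% for the interaction. An unadjusted p under 0.05 was reached by 17.7% in diestrus and 11.7% for the interaction. Between the lines in estrus 4.89% showed no overlap.

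Between the stages, 2 pathway genes were higher in estrus in ctrl and in FL1 alike, without overlap in either line. Of all tested genes, 4.52% in ctrl and 12.2% in FL1 separated the stages without overlap. Fstl1, a secreted relative of follistatin, had 415 ± 72.3 CPM in estrus and 223 ± 26.4 CPM in diestrus in ctrl (log2FC 0.90 ± 0.14, adjusted p = 0.00421). In FL1 it had 360.1 ± 60.5 and 184 ± 20.1 CPM (log2FC 0.96 ± 0.11, adjusted p = 2.4e-05). Pcsk5, a proprotein convertase, had 157 ± 38.8 CPM in estrus and 45.0 ± 6.01 CPM in diestrus in ctrl (log2FC 1.80 ± 0.17, adjusted p = 0.00012). In FL1 it had 126 ± 22.6 and 40.5 ± 4.45 CPM (log2FC 1.63 ± 0.12, adjusted p = 2.7e-07). These were the only pathway genes called in ctrl, 2 of 17 tested, where 2.85% of all tested genes were called. In FL1, 3 of 18 were higher and 2 lower in estrus, where 15.9% of all tested genes were called. Tgfbr3, which encodes betaglycan, the co-receptor that lets inhibin bind the activin type II receptors, was higher (log2FC 0.47 ± 0.11, adjusted p = 0.00705), with 81.4 ± 12.6 CPM in estrus and 58.5 ± 4.25 CPM in diestrus. Smad7, an inhibitory SMAD, was lower (log2FC -0.67 ± 0.17, adjusted p = 0.0118), and so was Smad3 (log2FC -0.26 ± 0.09, adjusted p = 0.0498). In ctrl, Tgfbr3 had a log2FC of 0.45 ± 0.19 (adjusted p = 0.260), and the interaction of Tgfbr3 was 0.03 ± 0.23.

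Ratios within a library compare the read counts of the subunits without the library size. The ratio of Inha to the sum of Inhba and Inhbb had a geometric mean of 4.59 in ctrl in estrus (range 2.57 to 7.09), 2.18 in FL1 in estrus (1.86 to 2.58), 2.16 in ctrl in diestrus (1.40 to 2.80) and 1.48 in FL1 in diestrus (1.09 to 2.41). The log2 ratio was lower in FL1 than in ctrl by 1.08 in estrus, which means a ratio 0.474 times as large (exact two-sided permutation test, n = 5 per group, p = 0.0159, adjusted p = 0.0952), and the groups overlapped. Fst relative to the sum of the beta subunits had geometric means of 0.414, 0.446, 0.307 and 0.229 in the same order of groups. Inhba relative to Inhbb had 1.27, 1.29, 1.88 and 1.82. The log2 ratio of Fst to the beta subunits differed between the lines in estrus by 0.11 (FL1 minus ctrl). Without ctrl estrus 5 that difference was -0.011. Over 12 exact permutation tests, 6 between lines and 6 between stages, 5 had a p under 0.05 and 0 an adjusted p of at most 0.05, with 0.00794 as the smallest p that 5 against 5 libraries allow. Between the stages in ctrl, the log2 ratio of Inha to the beta subunits was higher in estrus by 1.09 (exact permutation test, p = 0.0238, adjusted p = 0.0595). The difference was 1.30 without ctrl estrus 4 (adjusted exact p = 0.0476) and 1.02 without ctrl estrus 5 (adjusted exact p = 0.0714). Between the stages in FL1, the adjusted exact p was 0.0595 for all 3 ratios, with log2 differences (estrus minus diestrus) of 0.56 for Inha, 0.96 for Fst and -0.49 for Inhba to Inhbb. Without FL1 diestrus 1, all 3 reached an adjusted exact p of 0.0476 with log2 differences of 0.73, 1.21 and -0.52.

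**Figure D3:**
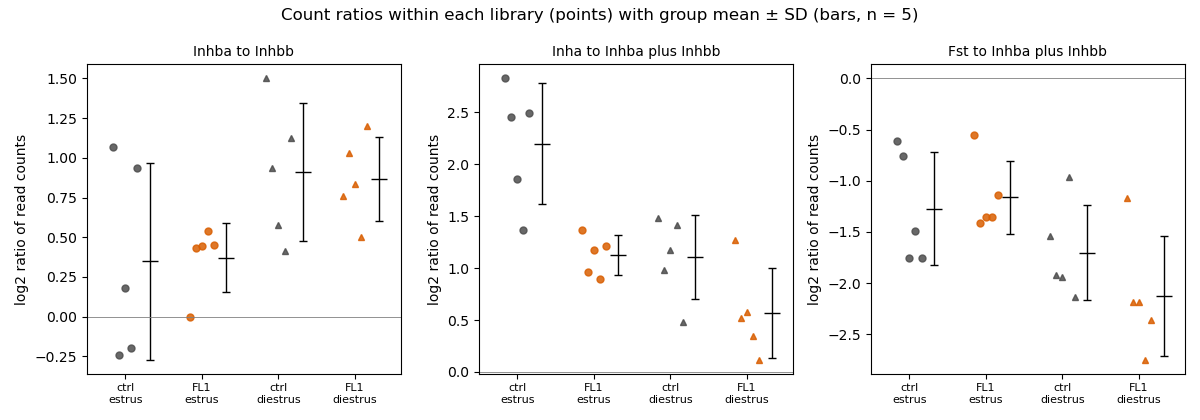
Log2 ratio of read counts within a library (y axis) for Inhba to Inhbb, Inha to both beta subunits and Fst to both beta subunits, by group (x axis), with 1 point per library and the group mean ± SD (n = 5). The ratio of Inha to the beta subunits is highest in ctrl in estrus (geometric mean 4.59) and lowest in FL1 in diestrus (1.48).

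Within the groups, libraries with more Inhba also had more Inhbb, and those with more Inha more Inhba and Fst, although no pair held without ctrl estrus 5. Log2 CPM were taken as deviations from the group mean over the 20 libraries, and of the 28 pairs of members 3 passed the test (100000 permutations of libraries within groups, adjusted over the 28 pairs). Inhba and Inhbb had a Pearson r of 0.811 (permutation p = 0.00097, adjusted p = 0.0119) and a Spearman rho of 0.768 (permutation p = 0.0018, adjusted p = 0.0279). Inha and Fst had r = 0.842 (permutation p = 0.0013, adjusted p = 0.0119) and rho = 0.722 (permutation p = 0.0020, adjusted p = 0.0279). Inha and Inhba had r = 0.712 (permutation p = 0.0010, adjusted p = 0.0119) and rho = 0.675 (permutation p = 0.0031, adjusted p = 0.0287). Without the 2 libraries farthest from the median of the first gene, r was 0.698 for Inhba and Inhbb, 0.693 for Inha and Fst and 0.552 for Inha and Inhba. Without ctrl estrus 5 alone, 0 of the 28 pairs passed the adjusted permutation test, and r was 0.747, 0.636 and 0.602 in this order. Over the 10 estrus libraries r was 0.873 for Inhba and Inhbb (adjusted permutation p = 0.0667), 0.925 for Inha and Fst (0.0441) and 0.812 for Inha and Inhba (0.0577), so that only Inha and Fst of the 3 passed there. The other pairs that passed over the estrus libraries, named after their values were seen, were Inhbb and Fst (r = 0.824, adjusted permutation p = 0.0441) and Fstl3 and Acvr1b (r = -0.873, adjusted permutation p = 0.0459), which did not pass over all 20 libraries (adjusted permutation p = 0.0562 and 0.133). Over the 10 diestrus libraries r was 0.757, 0.442 and 0.553 in the first order, and 0 of the 28 pairs passed the adjusted permutation test.

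**Figure D4:**
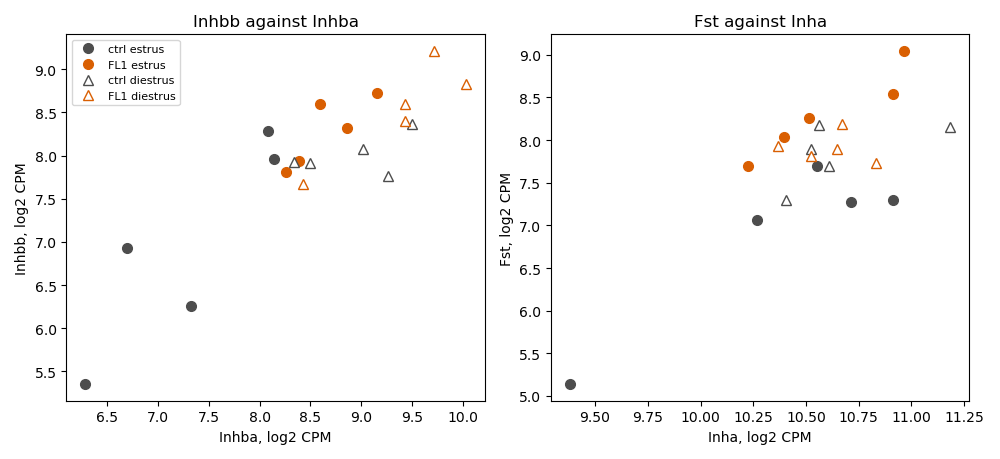
Log2 CPM of Inhbb against Inhba and of Fst against Inha, with 1 point per library (n = 20), coloured by line and shaped by stage. Ctrl estrus 5 is the point at the lower left of both plots.

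The genes whose log2 CPM was most like that of a member were sought by Pearson r over the 20 libraries among 14146 genes, as a description that includes the differences between groups and the low values of ctrl estrus 5. For Inha these were Mtcl1 (r = 0.932), Mex3c (0.913) and Slc38a5 (0.892). For Inhba they were the aromatase gene Cyp19a1 (0.895), the potassium channel subunit gene Kcne2 (0.880) and Smim10l2a (0.868). For Inhbb they were Nap1l5 (0.876), Cyp19a1 (0.845) and C1qbp (0.841), so by Pearson r Cyp19a1 stood among the 3 most alike genes of both beta subunits. The Spearman rho of Cyp19a1 was 0.845 with Inhba and 0.656 with Inhbb. For Fst they were Fh1, which encodes fumarase (0.915), Hsd11b2 (0.899) and Camta1 (0.885).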

How the data were processed

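RNA of whole ovaries was measured in 20 libraries, 1 per animal, grouped by line and stage from the sample titles. A source label that names FL1 for all libraries was not used. The authors prepared QuantSeq 3' mRNA-Seq libraries, aligned the reads with STAR to GRCm38 and deposited raw counts of uniquely assigned reads per Ensembl gene, without normalization. The submitters' processing notes also name Cuffdiff, but the deposited values are whole counts. The counting tool and strand setting are not given in the sources used here, and no molecular identifiers are named.

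Everything else was computed from these counts. Symbols and positions came from GENCODE M21 (54809 of 54838 genes), promoters from RefSeq. EdgeR 4.0.16 in R 4.3.3 tested genes kept by filterByExpr (minimum count 10) with TMM normalization and the quasi-likelihood test, and an adjusted p of at most 0.05 was a call. Lines were compared in the 10 libraries of a stage, stages in the 10 libraries of a line, and the interaction over all 20. The SE was derived as |log2FC| over the root of the F statistic. Log2 CPM had a prior count of 2 and ratios 0.5 added to counts. Ratios were compared by exact permutation over 252 splits, two-sided, with Benjamini-Hochberg adjustment over the 6 line and the 6 stage tests. Python 3.11.15 and scipy 1.17.1 were used. All 40 pairs of libraries from the same group differed beyond sampling noise (chi-square per gene 6.32 to 46.6). The sources do not say that animals came from separate litters.

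Alternatives were RLE size factors, DESeq2 1.42.0, limma-voom (limma 3.58.1), 2 other filters, a common fit of the 4 groups, a block for the replicate number, and leaving out single libraries. On simulated counts for the estrus libraries (13179 genes), 200 genes were changed by 1.5 on the log2 scale. EdgeR recovered 189 of them with 9 other calls, DESeq2 190 with 27 and limma-voom 185 with 10. Recovery of smaller changes, such as those of the members between the lines in estrus, was not tested. No other gene shared at least 50 of the 31-base words from the last 300 bases of a member's transcripts. Named genes are the 8 members, pathway genes called in any comparison, the 3 genes most like Inha, Inhba, Inhbb and Fst, and markers called where a member was. Members and lists were chosen with earlier results of these data known.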

Additional observations from a re-analysis of the deposited data

Results flagged for a closer look

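Of 44 groups of 5 values checked, 4 held 1 library far from the other 4, where chance gives about 1 in 20. Inha was 2327 CPM in ctrl diestrus 1 and 1357 to 1559.9 CPM in the other 4 libraries of its group. Acvr2b was 18.4 CPM in ctrl diestrus 5, against 14.5 to 15.2 CPM in the others, and 20.7 CPM in FL1 diestrus 4, against 12.3 to 14.6 CPM. The log2 ratio of Inhba to Inhbb was -0.0049 in FL1 estrus 1 and 0.43 to 0.54 in the other 4. No cause was tested for these values.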

How the results depend on the processing

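The number of genes called over all genes moved with the test. Between the lines in estrus it was 311, and 647 with DESeq2's Wald test, 477 with genes of at least 1 count kept and 531 with 1 fit of all 20 libraries. In diestrus it was 545, and 861 with DESeq2 and 846 with genes of at least 1 count kept. Between the stages in ctrl it was 380, and 788 with DESeq2 and 909 with 1 fit. The interaction called 8 genes, and 150 with DESeq2, 3 with limma-voom and 17 with genes of at least 1 count kept. Among the 8 members, the line comparison in estrus called 1 with DESeq2, 1 with limma-voom, 2 with genes of at least 1 count kept and 2 with 1 fit, against 0, and in diestrus 1 with genes of at least 1 count kept. Between the stages in FL1 it called 2 with limma-voom, with at least 10 counts in every library and with 1 fit, against 3. With 1 fit Inhba was the member lost in FL1 (adjusted p = 0.106). Acvr2a was lost with limma-voom, both other filters and the replicate block (adjusted p 0.0504 to 0.0840), and Fst was called there with genes of at least 1 count kept (adjusted p = 0.0041).

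Same-numbered libraries are different animals, and the labels name nothing that they share. Their deviations from the group means had correlations between -0.10 and 0.20 over 30 pairs, and 9 of 20 libraries correlated best with a library of their own number, where 4 would if the number played no part. Over the 120 pairs of different numbers the correlations lay between -0.18 and 0.14, with a median of -0.0050 against 0.0090 for the same number. Since the labels give no pairing, the numbers were not taken as pairs in the main tests. The count of 9 is a hint from the data and not from the design, and its cause was not tested. With the replicate block the calls over all genes were 230 and 498 between the lines, 259 and 2020 between the stages and 12 for the interaction. With the block 0 members were called between the stages in ctrl (Inhba adjusted p = 0.0917, Fstl3 adjusted p = 0.0502) and 2 in FL1.

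With 1 library left out, the calls were 175 to 418 between the lines in estrus, 349 to 594 in diestrus, 176 to 516 between the stages in ctrl, 1582 to 2316 in FL1 and 0 to 15 for the interaction. Members called were 0 to 2, 0 to 1, 1 to 2 and 1 to 3 in the 4 comparisons. Among the 12 ratio tests 0 to 6 passed, 2 without ctrl estrus 4 and 6 without FL1 diestrus 1. Both counts include tests that do not use the left-out library and passed only because the adjustment is shared by 6 tests. The differences in log2 ratio of Inha to the beta subunits ranged from 0.93 to 1.30 between the stages in ctrl and from 0.44 to 0.73 in FL1. Those of Fst to the beta subunits ranged from 0.81 to 1.21 between the stages in FL1, from -0.67 to -0.24 between the lines in diestrus and from -0.0437 to 0.275 in estrus. Those of Inhba to Inhbb ranged from -0.58 to -0.40 between the stages in FL1, from -0.12 to 0.20 between the lines in estrus and from -0.17 to 0.10 in diestrus. Relations that passed numbered 3 within estrus (1 of them among the 3 over all libraries), 0 within diestrus and 0 without ctrl estrus 5, which was chosen after seeing the data.

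Signs turned only for values near 0. Between the lines in estrus, Acvr2b was -0.0357 with limma-voom and -0.0697 to 0.158 with 1 library left out, Acvr1b was 0.000798 with at least 10 counts in every library, 0.0270 with the block and -0.144 to 0.135 with 1 left out, and Fstl3 was -0.0710 to 0.222. In diestrus, with 1 left out, Inha was -0.133 to 0.0874, Fst -0.0793 to 0.121 and Fstl3 -0.167 to 0.0198. Between the stages, Acvr1b in ctrl was -0.0983 to 0.180, and Inha in FL1 was -0.00695 with limma-voom, -0.00826 with the block and -0.0795 to 0.104 with 1 left out. The causes were not tested. The receptor genes had 48 to 193 counts per library.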
